A study of Mus musculus with 3 samples.

Results

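Cycling thymic epithelial cells (TECs) are the dividing part of the thymic epithelium, and 90 cell barcodes of them were found among the 17677 barcodes that the study's pipeline called as cells. A barcode marks the transcripts of 1 droplet, and a UMI is 1 counted transcript molecule. The barcodes were selected by raw UMIs: a sum of at least 4 for Mki67 and Top2a, which mark dividing cells, at least 2 for the epithelial gene Epcam, and 0 for Pecam1 (endothelial), Pdgfra (mesenchymal) and Ptprc (hematopoietic). They also had over 1000 genes and under 20% mitochondrial UMIs. There were 20 such barcodes of 8616 from Foxn1Lin female, 16 of 3583 from Foxn1Lin male and 54 of 5478 from wild type, and values for the 3 libraries are given in this order throughout. They were set beside the 1506 other Epcam barcodes (322, 383 and 801) that passed the same limits and held 3 or fewer Mki67 and Top2a UMIs.

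All libraries came from thymic cells depleted of CD45+ cells, from untreated C57BL/6 mice aged 20 months. The Foxn1Lin female and Foxn1Lin male libraries carried the Foxn1 lineage trace, in which Cre driven by Foxn1, the master transcription factor of TECs, opens a tdTomato reporter at Rosa26, and the third library was from wild-type males without the reporter. Thymi were pooled per library, each group had 1 library (n = 1), so sex, genotype and library cannot be told apart. The reporter records that a cell or a forebear expressed Foxn1, not that it does so now. The labels give the wild-type cells as CD45- in the title but as CD45-PECAM1+ in another field, and the preparation text names female mice for every library.

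The thymic epithelium has a cortex, where developing T cells are positively selected on peptides cut by the Psmb11 thymoproteasome, and a medulla, where self-antigens are displayed. In the medulla, immature Ccl21a-expressing cells draw in positively selected thymocytes, and mature cells express Aire, which opens many tissue-restricted genes for tolerance. RANK (Tnfrsf11a) and CD40 signals from T-lineage cells drive growth and maturation of medullary TECs, and dividing medullary cells are known to sit close to the onset of Aire expression. In dividing cells, genes of the G1/S transition are switched on by E2F factors, and genes of G2 and mitosis by the MuvB complex with Mybl2 and Foxm1, which acts on CHR elements (TTTGAA) often paired with CCAAT boxes.

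The last 120 bases before the annotated start of the 5 marker genes are printed here to show which of them hold these elements. The sequences are from RefSeq on GRCm38.p6, 5′ to 3′ on the gene's strand, with TTTGAA and CCAAT in capitals on either strand (TTCAAA and ATTGG are the reverse complements). Mki67 lies at chr7:135716380-135716499 (- strand), Top2a at chr11:99024190-99024309 (-), Birc5 at chr11:117849117-117849236 (+), Ube2c at chr2:164769809-164769928 (+) and Cdk1 at chr10:69352913-69353032 (-).
Mki67: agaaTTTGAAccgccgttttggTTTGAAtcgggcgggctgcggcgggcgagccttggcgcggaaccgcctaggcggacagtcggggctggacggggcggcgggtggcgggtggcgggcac
Top2a: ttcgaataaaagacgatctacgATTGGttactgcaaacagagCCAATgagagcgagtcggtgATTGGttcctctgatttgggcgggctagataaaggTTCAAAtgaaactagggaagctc
Birc5: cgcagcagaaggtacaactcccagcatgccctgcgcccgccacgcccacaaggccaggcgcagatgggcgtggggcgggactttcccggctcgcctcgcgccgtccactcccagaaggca
Ube2c: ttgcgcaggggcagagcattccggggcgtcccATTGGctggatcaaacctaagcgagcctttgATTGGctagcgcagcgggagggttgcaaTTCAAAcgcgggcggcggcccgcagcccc
Cdk1: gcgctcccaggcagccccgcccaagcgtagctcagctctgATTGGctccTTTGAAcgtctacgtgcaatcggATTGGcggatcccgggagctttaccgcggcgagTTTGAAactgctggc

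The windows hold 2 TTTGAA matches for Mki67 and Cdk1 and 1 for Top2a and Ube2c, while the Birc5 window holds neither motif and the Mki67 window holds no CCAAT. Over the longer stretch of 250 bases, 4 of the 5 marker promoters held both motifs, Mki67 among them. In the 250 bases before the start, both strands searched, TTTGAA stood in 40.4% of the 52 promoters of the 47 matched genes of a 54-gene G2/M list, and in 16.0% of all 32851 promoters. CCAAT stood in 75% of the G2/M promoters and in 33.8% of all promoters. Promoters of the S phase list (34 promoters, 31 of 43 genes) held TTTGAA in 17.6% and CCAAT in 67.6%. TTTCCCGC, an E2F motif, was in 8.82% of the S phase promoters, 1.92% of the G2/M promoters and 0.895% of all promoters. These matches describe letters in a window and do not show binding.

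Depth differed between libraries and between the cells compared. UMIs per cycling barcode had a median of 17475 (range 3396 to 40984), then 31445 (4273 to 107513), then 34186.5 (3050 to 85754), against medians of 10575, 13017 and 16411 in the other Epcam barcodes. Cycling barcodes were thus the deeper ones in all 3 libraries, and the part of depth in the results was not tested beyond the thinned values given beside them. Sequencing saturation was 52.1%, 81% and 72.8%, and 74.7%, 90.1% and 93% of reads fell in cells. No cycling barcode sequence recurred in another library, although 25 called pairs did. The 3.9% multiplet rate in the labels corresponds to 337, 140 and 214 barcodes, and with ties at the last score kept, the 361, 148 and 218 of highest doublet score held 0, 2 and 4 cycling barcodes. No barcode that the pipeline left uncalled met the Mki67, Top2a and Epcam thresholds.

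Epithelial genes were checked in the cycling barcodes beside a background. Krt8, a keratin of simple epithelium, had a UMI in 19 of 20, 16 of 16 and 53 of 54 cycling barcodes, and H2-Aa, an MHC class II chain of TECs, in all 90. Foxn1 itself was found in 13 of 20, 13 of 16 and 44 of 54, against 130 of 322, 120 of 383 and 313 of 801 other Epcam barcodes. The cycling barcodes are deeper, so each barcode was also thinned to 4000 UMIs and set beside endothelial barcodes (at least 2 Pecam1 and 0 Epcam UMIs), which should lack Krt8 and Foxn1. Thinned, Krt8 was found in 14 of 19, 16 of 16 and 47 of 53 cycling barcodes, in 261 of 285, 312 of 347 and 672 of 767 other Epcam barcodes, and in 158 of 1219, 18 of 700 and 25 of 703 endothelial ones. Thinned, Foxn1 was found in 3 of 19, 6 of 16 and 13 of 53 cycling barcodes, in 62 of 285, 43 of 347 and 139 of 767 other Epcam barcodes, and in 5 of 1219, 0 of 700 and 2 of 703 endothelial ones. Thinned H2-Aa was found in 19 of 19, 16 of 16 and 52 of 53 cycling barcodes, but also in 218 of 1219, 144 of 700 and 269 of 703 endothelial ones.

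Cycling barcodes made up 5.85% (95% exact Clopper-Pearson interval, 3.61 to 8.89), 4.01% (2.31 to 6.43) and 6.32% (4.78 to 8.16) of the gated Epcam barcodes of the 3 libraries. The intervals cover counting error only and overlap between all libraries, and with 1 library per group no test between groups was possible. Of the barcodes near the threshold, 4, 3 and 6 held 3 Mki67 and Top2a UMIs and were left out, and 4, 5 and 5 held 4 and were taken in. At 12 or more UMIs there were 10 of 20, 11 of 16 and 35 of 54 cycling barcodes. Setting Pecam1, Pdgfra and Ptprc to 0 removed 18, 6 and 52 further barcodes that met the other limits. Pecam1 alone removed 5, 3 and 25 of them, Pdgfra alone 1, 0 and 7, and Ptprc alone 5, 2 and 2. Without these 3 limits on either side, the wild-type share was 8.998%, a setting added after the data were seen.

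Genes of cell division were high because they, or genes that move with them, chose the barcodes, so they are described without a test. Mki67 had medians of 4.5 (range 0 to 19), 4.5 (0 to 22) and 7.5 (0 to 34) UMIs per barcode. Top2a, the topoisomerase that untangles sister chromatids, had medians of 7 (1 to 49), 9 (0 to 79) and 16 (0 to 91) UMIs. The markers that the thresholds did not use were present as well. Cdk1, the kinase that drives entry into mitosis, had a UMI in 14 of 20, 12 of 16 and 44 of 54 cycling barcodes against 13 of 322, 13 of 383 and 35 of 801 others. Ube2c, which feeds the anaphase-promoting complex, was found in 12, 8 and 37 cycling barcodes. Birc5, the survivin of the chromosomal passenger complex, was found in 10, 11 and 35. Every one of these markers was thus seen in at least 50% of the cycling barcodes of each library.

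G2/M and S phase sums are described without a test, since Mki67 and Top2a, which chose the barcodes, are both G2/M genes. Summed over 52 G2/M genes without Mki67 and Top2a, the median per barcode was 6258, 6465 and 6521 CPM (UMIs per 1e6 UMIs), against 929, 918 and 856 in the other Epcam barcodes. For 43 S phase genes the medians were 1583, 1006 and 2131 CPM against 384, 401 and 413. Single cycling barcodes ran from 579 to 3274, from 234 to 4778 and from 530 to 8668 CPM of S phase genes. The G2/M sum exceeded the S phase sum in 18 of 20, 15 of 16 and 42 of 54 barcodes, but also in 272 of 322, 325 of 383 and 657 of 801 others, and the lists differ in length and level. The plot of both sums shows that the ranges of cycling and other Epcam barcodes overlapped in each library, and that the highest S phase sum of a cycling barcode was in the wild type.

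**Figure D1:**
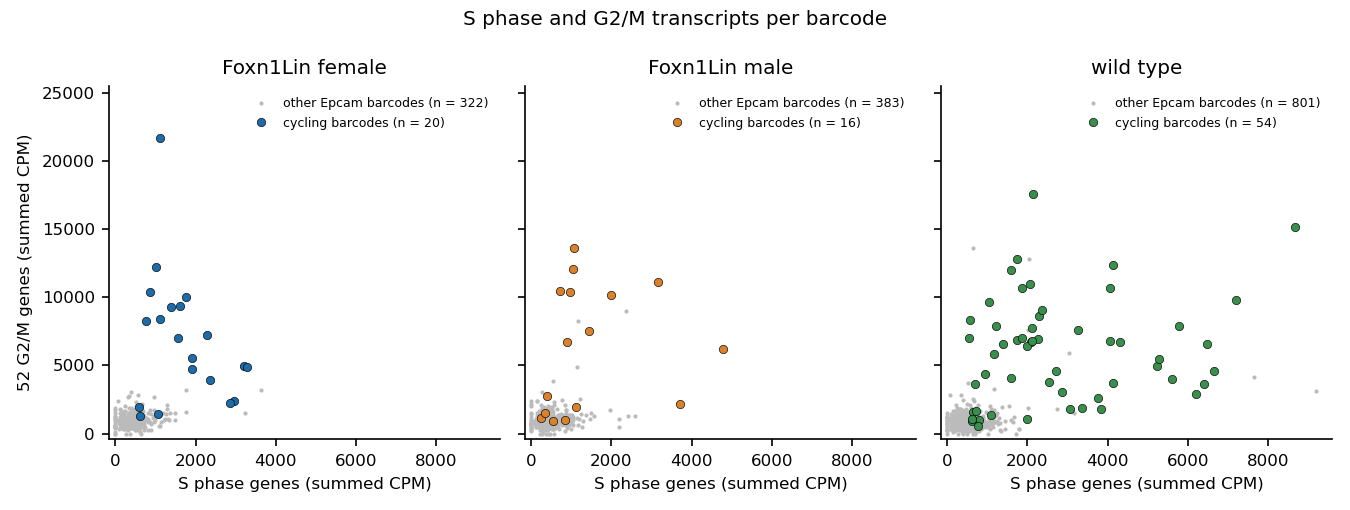
Each point is 1 barcode, with the summed CPM of 43 S phase genes on the x axis and of 52 G2/M genes on the y axis, 1 panel per library, coloured points for cycling and grey points for other Epcam barcodes. The cycling barcodes lie higher on the whole but overlap the grey ones, which reach G2/M sums of 3185, 8969 and 13599 CPM, with cycling G2/M medians of 6258, 6465 and 6521 CPM against 929, 918 and 856.

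Gene sums were then compared between cycling and other Epcam barcodes. UMIs were added up per library and class, and edgeR's quasi-likelihood test with the library as a block compared the 3 pairs of sums, so that libraries and not cells were the replicates. Of 13568 genes tested, 1200 were higher in cycling barcodes at an adjusted p under 0.05 (8.84%) and 1723 were lower (12.7%). Counts of called genes per list are to be read beside these shares. The median log2 fold change over all genes tested was -0.12, and fold changes are cycling minus other. The counts depended on the library: without Foxn1Lin female they were 588 higher and 718 lower, without the wild type 596 and 1122, and without Foxn1Lin male 1713 and 2206. In a sum, a different mix of cell types or states and a different level per cell cannot be told apart. The other Epcam sums also held the parathyroid genes given above.

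The cell division genes had the highest fold changes, which the choice of barcodes fixed and which are given with no count of calls. The median log2 fold change was 4.51 over the 54 G2/M genes, Mki67 and Top2a among them, and 2.48 over the 43 S phase genes. Among the genes with the steepest rise, Ska1, a kinetochore protein, had 56 UMIs in cycling barcodes and 1 in the others. Pclaf, a PCNA-binding protein, stood at 147, 167 and 248 CPM against 1.85, 1.16 and 1.41. Iqgap3 stood at 49, 43.6 and 85.5 CPM against 0.463, 0 and 0.307, and Esco2, an acetyltransferase of sister chromatid cohesion, at 35.4, 29.1 and 32.6 against 0, 0.165 and 0.246. The replication histone genes Hist1h1b and Hist1h3c, together with Pbk, Ube2c, Ccna2 and Pif1, completed the 10 leading genes. Foxm1 and Mybl2, the transcription factors of late cell cycle genes, had log2 fold changes of 4.06 and 3.58.

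Cyclins and their inhibitors are given by role, without a test. Ccna2, the S and G2 cyclin, stood at 54.5, 92.7 and 95.1 CPM against 0.695, 0.66 and 0.369, and Ccnb1, the mitotic cyclin, at 103, 85.5 and 46.1 against 6.72, 4.62 and 1.91. Ccnd2, a G1 cyclin, stood at 904, 491 and 1047 CPM against 392, 192 and 319, a log2 fold change of 1.38, while Ccnd3 stood at 30, 21.8 and 45.6 against 79.2, 80.2 and 61.4 (-1.15). Ccnd1, another G1 cyclin, stood at 95.3, 90.9 and 217 CPM against 84.3, 93.3 and 126. Over 10 genes for CDK inhibitors and Rb-family proteins the median log2 fold change was -0.13, near that of all genes. Cdkn1a, encoding p21, stood at 35.4, 70.9 and 45.6 CPM against 226, 141 and 95.1, and Cdkn1c, encoding p57, at 13.6, 16.4 and 7.68 against 121, 17.2 and 37.6. Single barcodes held 301 of 523 and 236 of 611 Cdkn1c UMIs of the other Epcam barcodes in Foxn1Lin female and the wild type, and the sums of Foxn1Lin male were close. Myc, a growth-promoting transcription factor, had a log2 fold change of -0.15. Uhrf1, which guides the copying of DNA methylation, had 89.9, 56.4 and 138 CPM against 9.73, 6.6 and 5.97.

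Most cycling barcodes expressed Aire. Aire (chr10:78030022-78043610, - strand) had at least 2 UMIs in 17 of 20 (85%; 95% interval, 62.1 to 96.8), 14 of 16 (87.5%; 61.7 to 98.4) and 38 of 54 (70.4%; 56.4 to 82.0) cycling barcodes. In the other Epcam barcodes the shares were 74 of 322 (23.0%), 61 of 383 (15.9%) and 157 of 801 (19.6%). Endothelial barcodes, which should lack Aire, gave 4 of 1998, 0 of 826 and 1 of 862, at median depths of 4833, 7849.5 and 7565 UMIs. With every barcode thinned to 4000 UMIs and 1 UMI required, the shares were 15 of 19, 11 of 16 and 33 of 53 in cycling and 73 of 285, 52 of 347 and 135 of 767 in other Epcam barcodes, so the gap was present at equal depth.

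The cortical marker Psmb11 was seen in few cycling barcodes, while Ccl21a, of immature medulla, had no common direction. Psmb11 (chr14:54621433-54629556, + strand) had at least 2 UMIs in 0 of 20, 0 of 16 and 1 of 54 cycling barcodes, against 44 of 322, 13 of 383 and 62 of 801 others. The exact intervals of these cycling counts reach 16.8%, 20.6% and 9.89%, and hold the shares of the others (13.7%, 3.39% and 7.74%) in each library. They bound barcodes with at least 2 UMIs and not cortical cells. With 1 UMI required, Psmb11 was in 1 of 20, 1 of 16 and 4 of 54 cycling barcodes, against 71 of 322, 21 of 383 and 103 of 801 others. Thinned to 4000 UMIs, the counts were 1 of 19, 0 of 16 and 1 of 53 against 49 of 285, 9 of 347 and 54 of 767. Ccl21a (chr4:42772860-42773993, - strand) had at least 2 UMIs in 7 of 20, 7 of 16 and 12 of 54 cycling barcodes, against 73 of 322, 101 of 383 and 201 of 801 others, with a background of 53 of 1998, 0 of 826 and 8 of 862 in endothelial barcodes. After thinning, Ccl21a was found in 6 of 19, 3 of 16 and 8 of 53 cycling barcodes and in 75 of 285, 99 of 347 and 182 of 767 others, so its order between the classes turned at equal depth in Foxn1Lin male. Aire was the sole marker of the 3 in 13, 9 and 30 cycling barcodes, Aire and Ccl21a were found together in 4, 5 and 8, and Ccl21a alone in 3, 2 and 4. No marker of the 3 was found in 0, 0 and 11.

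**Figure D2:**
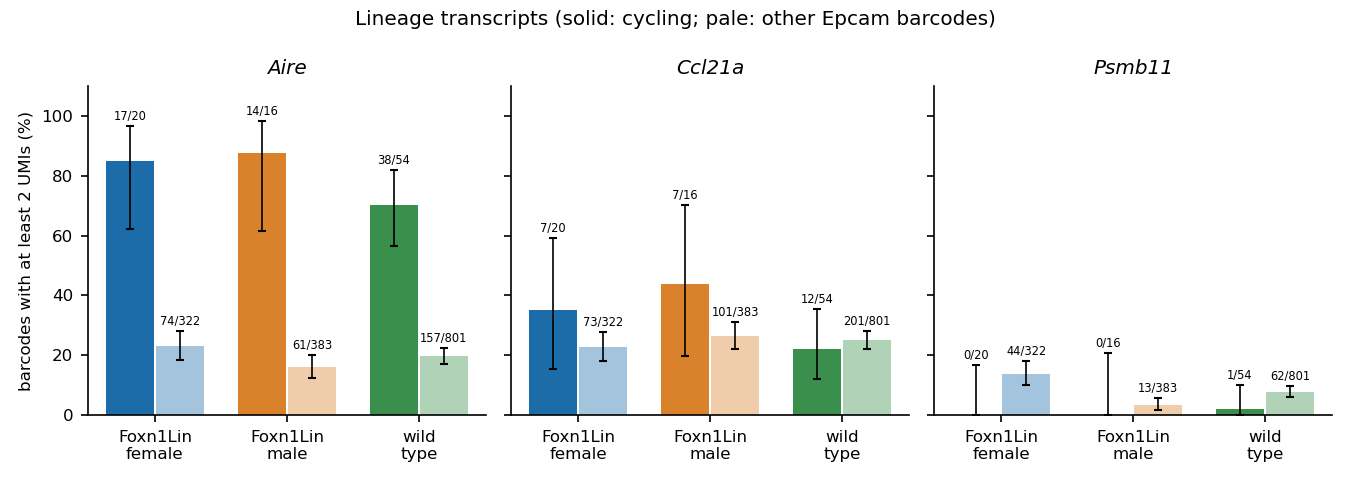
Bars give the percent of barcodes with at least 2 UMIs of Aire, Ccl21a and Psmb11 in each library, solid for cycling and pale for other Epcam barcodes, with exact 95% intervals and counts above. Aire was at 85%, 87.5% and 70.4% in cycling barcodes against 23.0%, 15.9% and 19.6%, with no overlap of intervals in any library, while Psmb11 was in 0, 0 and 1 cycling barcodes.

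The limits on Pecam1, Pdgfra and Ptprc bear on the cortical count. Without them, and with cycling barcodes then numbering 38, 22 and 106, Psmb11 was found in 9, 0 and 13, which is 23.7%, 0% and 12.3%, against 98 of 561, 15 of 479 and 93 of 1072 other Epcam barcodes. Aire was then in 23 of 38 (60.5%), 19 of 22 (86.4%) and 74 of 106 (69.8%). The low count of cycling Psmb11 barcodes thus held only with the limits in place in Foxn1Lin female and the wild type, and whether the removed barcodes were single cells was not tested.

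Some genes of mature medulla, Aire and Fezf2 among them, were higher in the sums. Of 9 genes in the mTEC2 list, 4 were higher, 1 was lower and 4 were not called (median log2 fold change 0.46, against -0.12 for all genes). Of all genes, 8.84% were higher and 12.7% lower. Aire stood at 536, 520 and 398 CPM in cycling and 204, 134 and 147 in other Epcam barcodes, which is 1.55 ± 0.17 on the log2 scale (SE; adjusted p = 0.00243 by edgeR). Fezf2, a second factor that opens tissue-restricted genes in the medulla, stood at 419, 413 and 338 CPM against 159, 148 and 125 (1.39 ± 0.14, adjusted p = 0.00196). Both factors were higher in all 3 libraries with no overlap between the classes, and both calls held in every setting tried. Tnfrsf11a, the receptor RANK, stood at 389, 506 and 473 CPM against 155, 134 and 174 (1.51 ± 0.17, adjusted p = 0.00267). Cd40 stood at 139, 122 and 132 against 77.6, 55.3 and 67.8 (0.93 ± 0.17, adjusted p = 0.0113). The lower one was Ccl22, a chemokine of mature medullary cells, with 4 UMIs in 2 cycling barcodes against 1026 UMIs in 76 others. It was tested only because of the others, so no fold is given and it adds nothing to the count. Tnfrsf11a and Cd40 lost the call without the limits on Pecam1, Pdgfra and Ptprc (adjusted p = 0.056 and 0.0752).

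The pathway below these receptors was partly higher. Of 12 genes of the RANK and CD40 axis, 5 were higher and 1 lower (median 0.28), beside 8.84% and 12.7% of all genes. The receptors Tnfrsf11a and Cd40 are among the 5. Nfkb2, whose product forms the non-canonical NF-κB p52, stood at 221, 193 and 153 CPM against 136, 86.8 and 86.7 (0.84, adjusted p = 0.0148). Its partner Relb stood at 373, 275 and 267 against 225, 184 and 169 (0.61, adjusted p = 0.0272), and Traf3, a brake on the pathway, at 359, 269 and 352 against 183, 169 and 202 (0.77, adjusted p = 0.0146). Ltbr, the lymphotoxin β receptor, was lower, at 10.9, 12.7 and 15.4 against 30.6, 28.9 and 31.8 (-1.23, adjusted p = 0.0258). The Relb, Traf3 and Ltbr calls were lost without Foxn1Lin female (adjusted p = 0.113, 0.0787 and 0.118) and without the wild type (0.137, 0.0631 and 0.111). Without the limits on Pecam1, Pdgfra and Ptprc, none of these 4 passed (adjusted p = 0.072 for Nfkb2, 0.157 for Relb, 0.0578 for Traf3 and 0.137 for Ltbr).

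MHC class II genes, which present antigen to CD4+ thymocytes, did not separate the classes. None of 9 genes passed the test in either direction (median -0.02; edgeR, adjusted p under 0.05). Cd74, the invariant chain, stood at 5724, 11977 and 6548 CPM against 5661, 9092 and 5992, and H2-Aa at 1909, 3873 and 2314 against 2457, 2787 and 2502, with classes overlapping.

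Genes of the cortex were lower. Of 10 cortical genes, 7 were lower and 0 higher (median -2.20), beside 12.7% lower of all genes. Psmb11 stood at 2.72, 1.82 and 14.4 CPM in cycling and 236, 15.7 and 93.1 in other Epcam barcodes (-3.50 ± 0.52, adjusted p = 0.00654). Prss16, the thymus-specific serine protease, stood at 13.6, 18.2 and 101 against 934, 107 and 438 (-3.21 ± 0.63, adjusted p = 0.0148), and Ctsl, encoding the cathepsin that trims class II peptides in the cortex, at 133, 173 and 365 against 2531, 2194 and 1532 (-3.31 ± 0.41, adjusted p = 0.00388). These 3 genes were lower in all 3 libraries. Cxcl12, a chemokine for thymocyte progenitors, stood at 24.5, 7.27 and 59.5 against 308, 91.6 and 218 (-2.73, adjusted p = 0.00508). Without the limits on Pecam1, Pdgfra and Ptprc, the Psmb11, Prss16, Ctsl and Cxcl12 calls were lost (adjusted p = 0.732, 0.339, 0.211 and 0.303), with a log2 fold change of -0.24 for Psmb11.

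Genes of immature medulla were lower in part. Of 8 mTEC1 genes, 3 were lower, 0 higher and 5 not called (median -0.37), beside 12.7% lower and 8.84% higher of all genes. Ccl21a stood at 294, 671 and 275 CPM against 971, 1728 and 816 (-1.60 ± 0.14, adjusted p = 0.0012), Ly6a, a surface protein of immature cells, at 43.6, 100.0 and 281 against 652, 1232 and 1501 (-3.24 ± 0.30, adjusted p = 0.00155), and Pdpn, encoding podoplanin, at 27.2, 36.4 and 88.3 against 125, 209 and 219 (-1.94 ± 0.27, adjusted p = 0.00548). The Ly6a call was lost without the limits on Pecam1, Pdgfra and Ptprc (-2.12, adjusted p = 0.0608). The keratins that mark these cells did not differ past the threshold: Krt5 stood at 182, 376 and 305 against 289, 417 and 410 (adjusted p = 0.0886, and 0.00733 with at least 8 Mki67 and Top2a UMIs), and Krt14 at 242, 258 and 177 against 256, 296 and 135 (adjusted p = 0.998). Empty droplets held Ccl21a at 431, 414 and 222 CPM and Aire at 69.4, 78.4 and 204 CPM, so the Ccl21a level of cycling sums was below that of free RNA in Foxn1Lin female, and the part of free RNA was not tested.

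Of 6 genes named in the study's text on age-associated TECs, most were lower. Of this aaTEC1 list, drawn from the study's text (which gives Sdc4 for many other TECs as well) and so no independent evidence of direction, 5 were lower and 0 higher (median -1.29). Against other Aire barcodes only 1 of the 6 was called, Plet1, with 0 UMIs against 85, and the summed list stood at 1528, 1852 and 1363 CPM in cycling and 1484, 1970 and 1712 in other Aire barcodes. Sdc4, a syndecan, stood at 70.8, 61.8 and 90.7 CPM against 413, 590 and 614 (-2.90 ± 0.20, adjusted p = 0.000556), and the call held in every setting. Plet1, a marker of early endodermal TECs, had 0, 0 and 21 UMIs in 5 cycling barcodes against 1481 in 321 others, and its call, on a filter passed through the others, was lost without the limits on Pecam1, Pdgfra and Ptprc. Cldn3, a claudin, stood at 62.6, 54.6 and 32.6 against 132, 127 and 127 (-1.51, adjusted p = 0.00696; 0.0658 without those limits). Krt8 stood at 746, 1318 and 723 against 1900, 1912 and 1661 (-1.07, adjusted p = 0.00908), and lost the call without Foxn1Lin female (adjusted p = 0.0847).

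Regulators of TEC identity are given by their values. Of 14, 2 were higher (Relb and Nfkb2, also in the RANK and CD40 list) and 3 lower (median -0.02), beside 8.84% higher and 12.7% lower of all genes, and nothing is read from these counts. Pax1, a pharyngeal pouch factor, stood at 51.7, 25.5 and 74.4 CPM against 205, 159 and 219 (-2.01 ± 0.24, adjusted p = 0.00339), and Eya1, of the same network, at 81.7, 72.7 and 201 against 174, 213 and 368 (-1.19, adjusted p = 0.00817). Pax1 lost the call without the limits on Pecam1, Pdgfra and Ptprc (adjusted p = 0.109), and Eya1 without Foxn1Lin female (0.0559). Foxn1 stood at 51.7, 92.7 and 87.9 against 78.8, 51.3 and 67.0, which is lower in 1 library and higher in the others, and did not pass the test (0.23 ± 0.28, adjusted p = 0.62). Of 17 growth factor receptors tested, 6 were lower and 0 higher (median -0.62). Against other Aire barcodes 1 of 13, Met, was lower and 0 higher, with a median of 0.11, and the summed list stood at 1082, 863 and 1465 CPM against 882, 963 and 1079. Fgfr2, the receptor that binds keratinocyte growth factor, stood at 112, 131 and 108 against 205, 209 and 174 (-0.79, adjusted p = 0.0152), and Egfr at 169, 90.9 and 145 against 217, 254 and 339 (-1.08, adjusted p = 0.0222). The Fgfr2 call was lost without Foxn1Lin female (adjusted p = 0.132), and the Fgfr2 and Egfr calls without the wild type (0.0608 and 0.0619).

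Genes of ribosome biogenesis were higher in part. Of 16 genes of the MYC and ribosome biogenesis list, 9 were higher, 0 lower and 7 not called (median 1.15), beside 8.84% higher of all genes. Ncl, encoding nucleolin, stood at 1288, 802 and 1060 CPM against 369, 403 and 259 (1.57 ± 0.23, adjusted p = 0.00578), and Npm1, encoding nucleophosmin, at 1375, 1113 and 1451 against 457, 591 and 383 (1.43 ± 0.21, adjusted p = 0.00649). Both were higher in all 3 libraries, and both calls held in every setting. Of 10 glycolysis genes, 3 were higher, 1 was lower and 6 were not called. Pgk1 stood at 207, 169 and 163 against 83.6, 84.5 and 62.7 (1.18, edgeR adjusted p = 0.00568), and Aldoa, an earlier enzyme of the same pathway, at 212, 175 and 145 against 364, 341 and 243 (-0.87, adjusted p = 0.00985). Aldoa lost the call without Foxn1Lin female (adjusted p = 0.08) and without the limits on Pecam1, Pdgfra and Ptprc (0.123), and Pgk1 at 4000 UMIs per barcode (0.0784).

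Insm1, a zinc-finger factor of neuroendocrine cells, was the single gene of that list past the threshold. It stood at 109, 309 and 287 CPM against 31.3, 65.9 and 53.2 (2.14 ± 0.19, edgeR adjusted p = 0.00125) and was found in 13 of 20, 13 of 16 and 43 of 54 cycling barcodes. These detection counts were not taken at equal depth, and the cycling barcodes are the deeper ones. The other 2 neuroendocrine genes tested, Snap25 and Stxbp5l, were not called by edgeR and had log2 fold changes of -2.44 and -2.30, so the list's median was -2.30 and Insm1 went against it. Genes of further specialised TEC types were mostly lower or not called: 3 of 6 tuft, 3 of 5 M-cell, 2 of 6 basal and 1 of 3 goblet genes were lower and 0 higher, with medians of -1.64, -1.48, -1.20 and -1.02. Of all genes, 12.7% were lower. Gp2, the M-cell glycoprotein, had 0, 0 and 26 UMIs in 3 cycling barcodes, 23 of them in 1, against 3622 in 93 others. It passed the filter on low counts through the others, so it adds nothing to the M-cell count. Trp53, encoding p53, stood at 152, 135 and 180 CPM against 51.0, 95.1 and 64.9 (1.14, adjusted p = 0.0219), and lost the call without Foxn1Lin female (0.0973) and without the wild type (0.0643). In the TGF-β and inflammation list, which holds Trp53, 1 of 10 was higher and 3 lower (median -0.47), beside 8.84% and 12.7% of all genes.

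The 10 lower genes of largest fitted change had 0 UMIs in all 90 cycling barcodes and were tested only because of their UMIs in the other Epcam barcodes. Their folds are lower bounds set against 3 counts over the pooled cycling barcodes, so the bounds follow the counts of the other Epcam barcodes and give no order of reduction. Kif19a (chr11:114765388-114790739, + strand), a kinesin of cilia, had 2262 UMIs in 306 other Epcam barcodes and was at least 84.9-fold lower in cycling ones. Ephb1, an ephrin receptor, had 1178 UMIs in 196 (at least 44.2-fold lower), and Bmx, a Tec-family kinase, 1029 UMIs in 58 (at least 38.6-fold). Paqr6, in 201 barcodes, was at least 25.8-fold lower, Agr3, a disulfide isomerase of ciliated cells, in 182, also at least 25.8-fold, and Scg2, a secretory granule protein, in 34, at least 24.7-fold. The other 4 were Gm94, Trank1, Cdh8 and Arg1, at least 17.2, 17.2, 15.8 and 15.5-fold lower. The Kif19a call was lost without the limits on Pecam1, Pdgfra and Ptprc (adjusted p = 0.0649), and 32 of the 1723 lower genes had 0 UMIs in cycling barcodes.

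**Figure D3:**
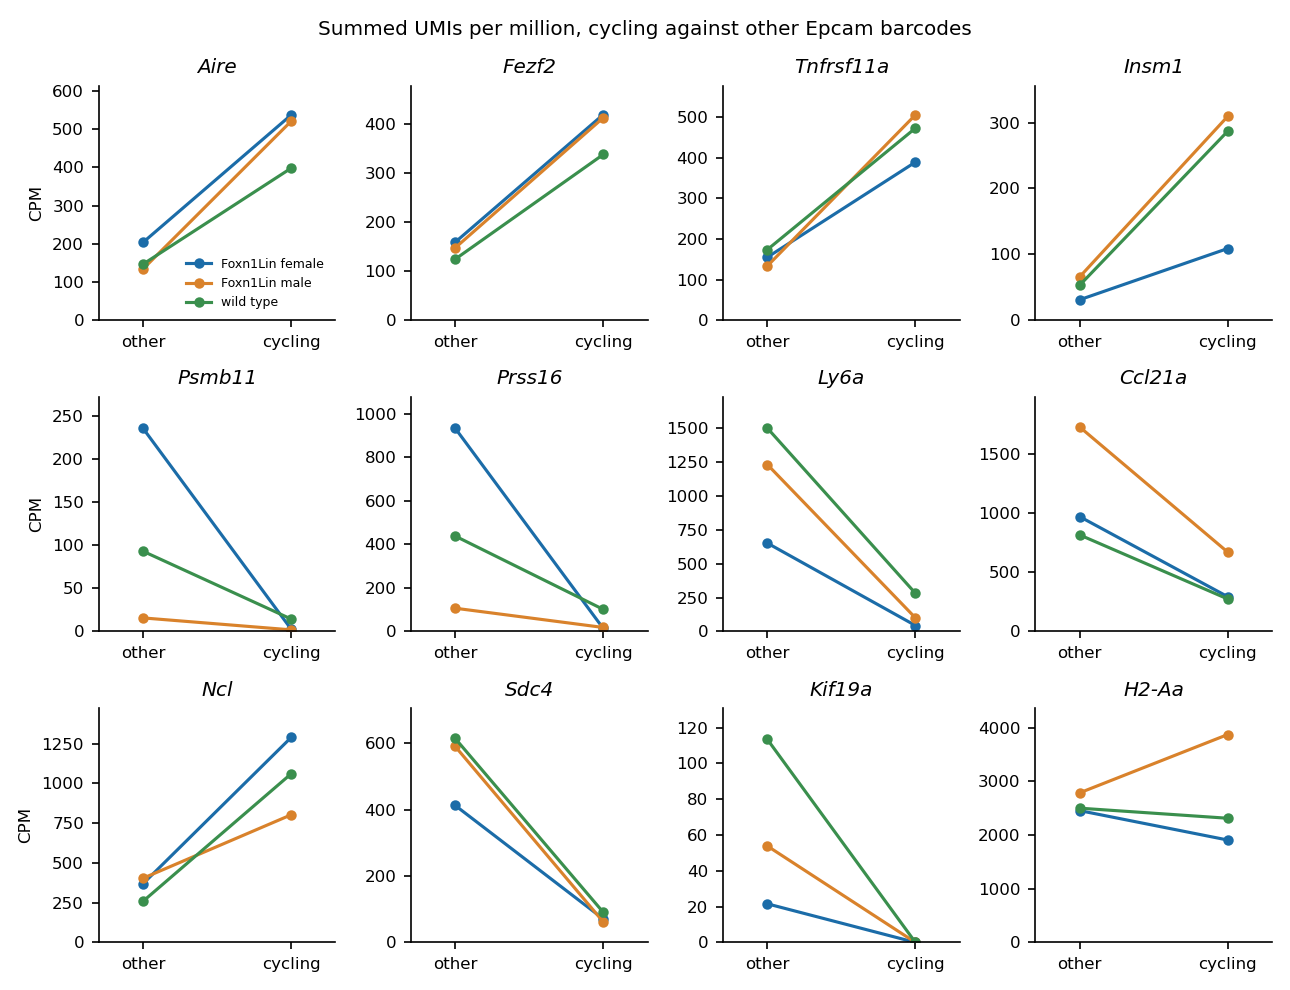
Each panel is 1 gene, with CPM of the summed UMIs on the y axis for other Epcam barcodes (left) and cycling barcodes (right), and 1 line per library (n = 1 each). Aire, Fezf2, Tnfrsf11a, Insm1 and Ncl go up in all 3 lines, Psmb11, Prss16, Ly6a, Ccl21a, Sdc4 and Kif19a go down in all 3, and H2-Aa goes up in Foxn1Lin male (2787 to 3873) and down in the others.

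Because most cycling barcodes carried Aire, those with Aire were also compared with other Epcam barcodes with Aire. Both sides held at least 2 Aire UMIs: 17, 14 and 38 cycling barcodes against 74, 61 and 157 others. Of 10835 genes tested, 435 were higher in cycling barcodes (4.01%) and 567 lower (5.23%), with a median log2 fold change of -0.03 over all genes. The list counts of this comparison are to be read beside these shares. This comparison rested on the Foxn1Lin female library: without it, 75 genes were higher and 67 lower, of which 73 and 58 were among the calls above, against 630 and 1207 without Foxn1Lin male and 183 and 305 without the wild type. Aire chose both sides and was not tested: it stood at 612, 559 and 524 CPM in cycling and 743, 559 and 662 in other Aire barcodes. Both comparisons share the cycling barcodes, so they are not independent.

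Fezf2, Tnfrsf11a and Insm1 did not pass the test between cycling and other Aire barcodes. Fezf2 stood at 477, 430 and 426 CPM against 413, 497 and 432 (log2 fold change -0.04 ± 0.15, edgeR adjusted p = 0.893), and Tnfrsf11a at 436, 501 and 536 against 385, 361 and 469 (0.25 ± 0.15, adjusted p = 0.34). Insm1 stood at 122, 332 and 364 against 94, 221 and 178, which was higher in all 3 libraries and did not pass the test (0.66 ± 0.19, adjusted p = 0.0852, and 0.0373 with at least 1 Aire UMI). Of 12 regulators of TEC identity, 0 were called in either direction by edgeR, and Foxn1 stood at 56.5, 97.8 and 98.2 against 121, 104 and 135 (-0.54 ± 0.25, adjusted p = 0.218). A p above the threshold does not show that the levels are equal.

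Some genes of antigen presentation and late maturation were lower in cycling Aire barcodes. Of 9 MHC class II genes, 5 were lower and 0 higher (median -0.67, against -0.03 for all genes). H2-Aa stood at 1979, 4000 and 2489 CPM against 4200, 5118 and 5470 (-0.89 ± 0.19, adjusted p = 0.038), H2-Ab1 at 2441, 3509 and 2094 against 5046, 4302 and 4258 (-0.82 ± 0.19, adjusted p = 0.0448), and Cd74 at 6133, 12406 and 7259 against 9997, 16738 and 12289 (-0.67 ± 0.13, adjusted p = 0.0306). H2-Eb1 (-0.66) and H2-Oa (-1.22), which tempers peptide loading, were the other two. Each was lower in all 3 libraries, and all 5 calls were lost without Foxn1Lin female (adjusted p = 0.241 for H2-Aa, 0.273 for H2-Ab1, 0.26 for Cd74, 0.255 for H2-Eb1 and 0.172 for H2-Oa), with log2 fold changes then of -0.76, -0.67, -0.61, -0.63 and -1.13. H2-Ab1 and H2-Oa also missed the threshold without the wild type (adjusted p = 0.0529 and 0.0705).

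Of 8 mTEC2 genes, 3 were lower and 0 higher (median -1.11). Cd80, a costimulatory ligand of mature medullary cells, stood at 194, 205 and 263 CPM against 371, 464 and 421 (-0.95 ± 0.17, adjusted p = 0.0269). Ubd, encoding the ubiquitin-like FAT10, stood at 1123, 1793 and 1092 against 3238, 2541 and 3396 (-1.26 ± 0.24, adjusted p = 0.0307). The third, Ccl22, had 4 UMIs in 2 of the cycling Aire barcodes against 888 in the others and was tested only because of the others, so it adds nothing to the count. Cd80 and Ubd were lower in every library, and the Cd80 and Ubd calls were lost without Foxn1Lin female (adjusted p = 0.162 and 0.183). In the RANK and CD40 axis, 2 of 12 were lower: Traf1, an adaptor that NF-κB induces, at 40.8, 86.1 and 25.5 against 232, 228 and 195 (-2.29 ± 0.33, adjusted p = 0.0146), and Tnfrsf11b, the decoy receptor for RANK ligand (-0.97, adjusted p = 0.0472), with adjusted p = 0.0908 and 0.237 without Foxn1Lin female, and Tnfrsf11b at 0.0654 without Foxn1Lin male.

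The 10 lower genes of largest fitted change in cycling Aire barcodes are named with no tissue theme read from them. Of these, 9 were at 0 UMIs and tested only because of their UMIs in the other Aire barcodes, so their bounds give no order of reduction. Lypd8 (chr11:58379043-58390728, + strand), a gut antibacterial protein, had 0 UMIs in 69 cycling Aire barcodes and 1371 UMIs in 68 of 292 others, and was at least 179-fold lower. Anxa10, a gastric annexin, had 1 UMI against 895 in 59 barcodes, and it too was tested only because of the others. Ccl6, Ctrb1, a pancreatic protease precursor, and Sprr1b, of the cornified envelope, had 0 UMIs against 372, 254 and 185, at least 48.7, 33.2 and 24.2-fold lower, but those UMIs came from 14, 10 and 15 barcodes. The other leading genes, Tdo2, Htr2c, Arg1, Cyp2j13 and Tmem37, also had 0 UMIs and were at least 17.8 to 21.8-fold lower. Csn2, a casein whose expression in the medulla depends on Aire, stood at 65.9, 524 and 277 CPM against 753, 1469 and 1396 (-2.36 ± 0.36, adjusted p = 0.0162; 0.0577 without Foxn1Lin female). It was the single one of 7 Aire-induced antigens past the threshold (0 higher, median -1.86). Of 5 M-cell genes 2 were lower, Gp2 (1 UMI against 549) and Ccl9. Of 5 basal genes 3 were lower, Ly6d, Spink5 (8 UMIs) and Krtdap (4 UMIs). Gp2, Spink5 and Krtdap passed the filter through the other Aire barcodes and add nothing to these counts. The Ccl9 and Ly6d calls were lost without Foxn1Lin female (edgeR adjusted p = 0.0687 and 0.152). By edgeR, 0 of 3 tuft genes and 0 of 1 neuroendocrine genes were called. Fcgbp, a mucus protein of goblet cells, stood at 687, 733 and 485 against 1945, 1306 and 2044 (-1.51, adjusted p = 0.0199; 0.127 without Foxn1Lin female).

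Ribosome biogenesis genes were higher in part in cycling Aire barcodes too. Of 15 tested, 9 were higher, 0 lower and 6 not called (median 1.33), beside 4.01% higher of all genes. Ncl stood at 1393, 837 and 1272 CPM against 454, 362 and 303 (1.60 ± 0.20, adjusted p = 0.0103), and Nop58, of the snoRNP core, at 129, 151 and 183 against 57.5, 39.8 and 49.6 (1.64 ± 0.24, adjusted p = 0.0152). Npm1 and Fbl were among the 9 (1.28 and 1.36), and every one of these 4 was higher in each library. Without Foxn1Lin female the adjusted p was 0.0821 for Ncl, 0.0589 for Nop58, 0.134 for Npm1 and 0.135 for Fbl, and without the wild type 0.126 for Fbl. Of 10 glycolysis genes 2 were higher, Pgk1 (0.87) and Tpi1 (1.05), and Aldoa was lower (-0.75), and all 3 calls were lost without Foxn1Lin female (adjusted p = 0.18, 0.212 and 0.205) and without the wild type (0.158, 0.138 and 0.123). Cdkn1a, described without a test, stood at 31.4, 74.3 and 17.2 CPM against 221, 205 and 163, lower in each library, and Cdkn2b, encoding p15, at 9.41, 60.6 and 24.2 against 71.4, 106 and 87.0.

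**Figure D4:**
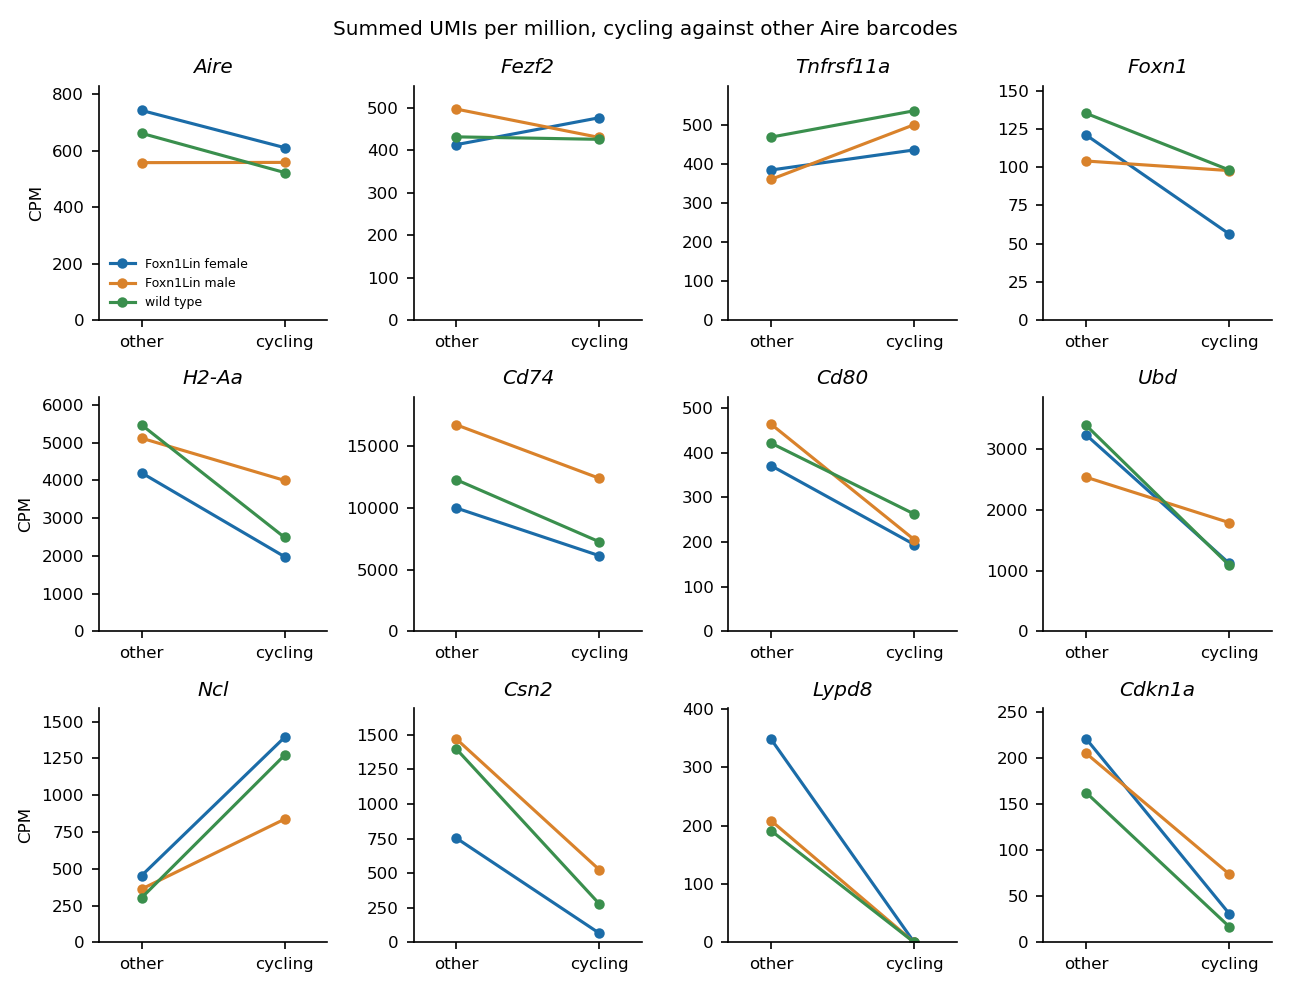
The same display for barcodes with at least 2 Aire UMIs, other (left) and cycling (right), as CPM of summed UMIs with 1 line per library. H2-Aa, Cd74, Cd80, Ubd, Csn2, Lypd8 and Cdkn1a go down and Ncl goes up in all 3 libraries, while Fezf2 moves both ways and Aire is at 559 CPM on both sides in Foxn1Lin male.

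**Figure D5:**
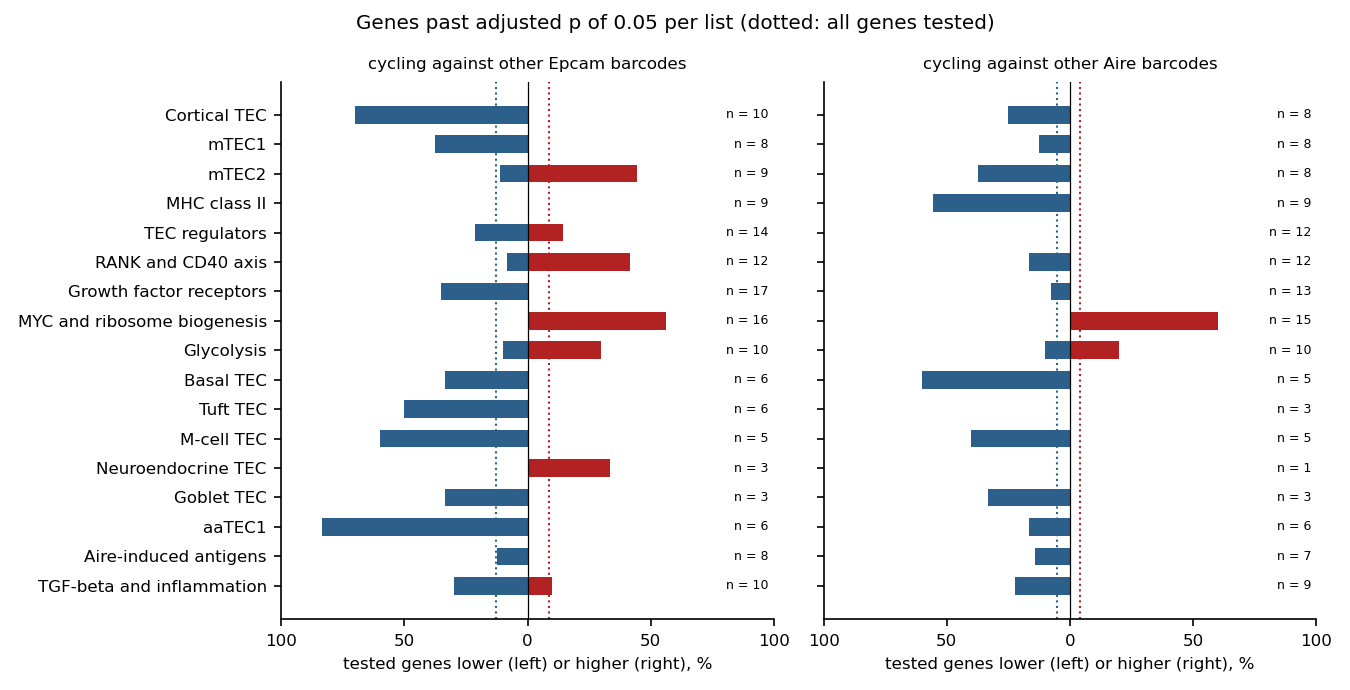
For each gene list, the bars give the percent of tested genes that were lower (left) or higher (right) at an adjusted p under 0.05, in the comparison with other Epcam barcodes (left panel) and with other Aire barcodes (right panel), with dotted lines at the percent over all genes (8.84 and 12.7; 4.01 and 5.23). Cortical genes are lower in 7 of 10 on the left and 2 of 8 on the right, MHC class II genes in 0 of 9 and 5 of 9, and ribosome biogenesis genes are higher in 9 of 16 and 9 of 15. The bars for lower genes include some that passed the filter on low counts only through the other barcodes, such as Ccl22, Gp2, Plet1, Spink5 and Krtdap.

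Cycling barcodes without Aire were described by their values only, since the libraries held 3, 2 and 16 of them. In the wild type, the 11 that carried none of Aire, Ccl21a and Psmb11 had Ly6a at 1188 CPM, Pdpn at 216 and Krt5 at 671, where the 38 cycling Aire barcodes had 62.5, 51.0 and 147. In the other Epcam barcodes of the wild type, at the values given above, Ly6a was higher than in these 11, Pdpn was close and Krt5 was lower. Their summed G2/M list stood at 5771 CPM and the S phase list at 2213, against 7005 and 2786 in the cycling Aire barcodes. Spink5, a protease inhibitor of stratified epithelium, reached 1020 CPM there, but 386 of its 406 UMIs came from 1 barcode, which was singled out after its values were seen. Psmb11 had at least 2 UMIs in 1 wild-type cycling barcode, with 27 UMIs, so the planned comparison with other Psmb11 barcodes could not be fitted.

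Reporter UMIs were present in cycling barcodes of both Foxn1Lin libraries, at levels that have to be read beside the background. Its transcript, tdT-WPRE, stood at 319 CPM (exact Poisson interval, 263 to 382) and 487 CPM (431 to 549), with 0 of 2082853 UMIs in the wild type. The other Epcam barcodes stood at 894 and 1368 CPM, but other Aire barcodes at 335 and 570, near the 326 and 491 of cycling Aire barcodes. Thinned to 4000 UMIs, 12 of 19 and 14 of 16 cycling barcodes held a reporter UMI, against 229 of 285 and 318 of 347 other Epcam barcodes and 0 of 53 in wild-type cycling ones, where the exact interval of a count of 0 reaches 6.72%. Among Aire barcodes the shares were 10 of 16 and 12 of 14 in cycling and 44 of 71 and 50 of 57 in others, whose intervals overlap. Endothelial barcodes of the same libraries gave 197 of 1219 and 118 of 700 at that depth, and empty droplets held the reporter at 237 and 556 CPM, above the 487 of cycling sums in Foxn1Lin male, and the part of free RNA in single reporter UMIs was not tested. At 2000 UMIs per barcode, 2 of 20 (10%) and 12 of 16 (75%) cycling barcodes held a reporter UMI, against 180 of 1905 (9.45%) and 76 of 814 (9.34%) endothelial and 222 of 322 (68.9%) and 309 of 382 (80.9%) other Epcam barcodes. The exact interval in Foxn1Lin female cycling barcodes, 1.23 to 31.7%, held the endothelial share. Each thinning was a single random draw, and in that draw the reporter there could not be told from background. In the draw to 4000 UMIs, the interval of the 12 of 19 was 38.4 to 83.7%, above the 16.2% of endothelial barcodes.

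Markers of other cell types were checked beside these results. Of the fibroblast list 2 of 7 genes were lower and 0 higher in cycling barcodes, of the mural list 3 of 7, of the hematopoietic list 2 of 7 and of the endothelial list 1 of 3, with 0 higher in each. Of all genes, 12.7% were lower. The parathyroid genes Pth and Chga were lower (-7.25 and -5.39). Pth, the parathyroid hormone gene, stood at 89.9, 9.09 and 4.32 CPM in cycling, 3057, 2866 and 2589 in other Epcam barcodes and 4071, 315 and 374 in empty droplets, and the part of parathyroid cells or of free RNA in the lower calls was not tested. Gcm2, the defining parathyroid factor, had 0 UMIs in the cycling barcodes. Of 5 T-lineage genes tested, 1 was higher, Tcf7 (1.23, adjusted p = 0.0177; 0.0559 without Foxn1Lin female), at 46.3, 50.9 and 36.5 CPM against 19.2, 16.7 and 18.1, and in Aire barcodes at 53.3, 54.8 and 37.0 against 40.0, 53.1 and 68.8. Cd3 genes reached 2 UMIs in 0, 0 and 1 cycling barcodes. At least 2 UMIs of the 14-gene T-lineage list were in 8 of 20, 7 of 16 and 24 of 54 cycling barcodes, against 89 of 322, 49 of 383 and 110 of 801 others. Without Tcf7 the counts were 3, 2 and 8 against 67, 30 and 47. The summed T-lineage level was 79.0, 72.7 and 81.1 CPM in cycling barcodes against 108, 44.4 and 40.1 in other Epcam barcodes, so it was higher in cycling barcodes of Foxn1Lin male and the wild type and lower in Foxn1Lin female. The summed endothelial level was 35.4, 63.6 and 17.8 CPM against 83.6, 32.9 and 42.1. The part of these markers in the results was not tested beyond leaving out barcodes with T-lineage UMIs. In cycling Aire barcodes 2 of 5 hematopoietic genes (Fcer1g, with 6 UMIs, and Lyz2), 1 of 3 fibroblast and 1 of 1 endothelial genes were lower and 0 higher, with Lyz2 at adjusted p = 0.194 without Foxn1Lin female and 0.0726 without the wild type.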

How the data were processed

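Single-cell suspensions of 3 libraries were profiled on a droplet platform, and the authors made raw UMI counts with Cell Ranger 7.01 (version as in the submitters' processing notes) on a mm10 (GRCm38) reference with 8 added transgene sequences. The deposited count matrices of called barcodes were used unchanged, those of all barcodes for empty droplets (20 to 500 UMIs; their headers name another Cell Ranger version, but 0 values differed between the matrices in the called barcodes), and the deposited summaries gave saturation as a percent of reads. Counts of rows with the same symbol were added. Per library and class, raw counts were summed and tested with edgeR 4.0.16 (R 4.3.3; TMM, filterByExpr, glmQLFit, glmQLFTest) with the library as a block and Benjamini-Hochberg adjustment over all genes tested at 0.05; each of 3 groups had 1 library. P-values measure the spread between these 3 libraries only. CPM is UMIs per 1e6 UMIs of the class. Shares have exact Clopper-Pearson and sums exact Poisson intervals at 95% (scipy 1.17.1), which cover counting error only; 3 pooled counts served as the floor for folds against a count of 0.

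The selection of barcodes, the gene lists and the comparisons were chosen with earlier results of these data known. Named were the marker genes, list genes with at least 10 UMIs in the cycling barcodes, and per comparison the 10 higher and 10 lower called genes of largest fold with 1 sign in every library and at least 30 UMIs, leaving out mitochondrial, ribosomal, hemoglobin, immunoglobulin, T-cell receptor and sex-linked genes. Ccl22, Gp2, Spink5, Krtdap, Fcer1g and Plvap, with fewer UMIs, were named after their values were seen. On simulated counts the test recovered 71.7% of 4-fold and 4.55% of 2-fold changes against Epcam barcodes (13770 genes) and 60.5% and 7.69% against Aire barcodes (11207 genes), with 0 false calls among unchanged genes. The simulated counts had a fixed dispersion, the same mean profile in every library and few changed genes. The data differ in this, so the simulation does not measure false calls in the real comparisons. Doublets were scored with Scrublet (scanpy 1.11.5) and kept; its automatic threshold marked 0, 15 and 1 barcodes and was not used. Gene positions are from GENCODE on GRCm38. Tried as alternatives were DESeq2 1.42.0, other filters, thresholds, thinning to 4000 UMIs and leaving out each library.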

Additional observations from a re-analysis of the deposited data

Results flagged for a closer look

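Summed list levels that moved in opposite directions in different libraries were looked at again; with 1 library per group, the difference between libraries was not tested for any of them. Values are summed CPM of cycling against other barcodes. The MHC class II list stood at 12500 against 13800 in Foxn1Lin female, 22800 against 16700 in Foxn1Lin male and 13000 against 12500 in the wild type, all against other Epcam barcodes. The Aire-induced antigens stood at 172 against 1190, 1840 against 1060 and 708 against 1370 in the same order, and in Foxn1Lin male 208 UMIs of S100a8 came from 1 cycling barcode. The hematopoietic list stood at 417 against 541, 587 against 351 and 302 against 310. The endothelial list stood at 35.4 against 83.6, 63.6 against 32.9 and 17.8 against 42.1, and Plvap, a fenestral diaphragm gene, was found in 6 of 16 cycling barcodes of Foxn1Lin male and 0 of 20 of Foxn1Lin female. Against other Aire barcodes, the mTEC1 list stood at 1070 against 832, 954 against 1250 and 1090 against 1660, and the tuft list at 47.1 against 55.7, 82.1 against 43.3 and 46.5 against 79.6. The MHC class II sum thus moved both ways against other Epcam barcodes, whereas against other Aire barcodes the class II genes named in the results were lower in each library.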

How the results depend on the processing

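Against other Epcam barcodes, 1200 higher and 1723 lower genes became 526 and 923 with barcodes thinned to 4000 UMIs (8882 genes tested), 1016 lower with at least 10 UMIs in every sum (fewer genes tested), and 828 lower without limits on Pecam1, Pdgfra and Ptprc; leaving out 1 library gave 588 to 1713 higher and 718 to 2206 lower. DESeq2 gave 1280 and 1539, sharing 1178 and 1453 calls, and no library block 978 and 1475. Of 185 named genes, Themis turned to -2.62 when other Epcam barcodes carried no such limits and Trpm5 to 0.35 with a threshold of 2 Mki67 and Top2a UMIs; the cause was not tested. Against other Aire barcodes, 435 and 567 became 679 and 1535 with no filter on low counts, 969 and 1047 without the 3 limits, 163 and 227 thinned (3885 genes tested), 187 and 282 without barcodes with T-lineage UMIs, and 75 to 630 and 67 to 1207 leaving out 1 library; of 154 named genes 0 turned and 39 lost the call without Foxn1Lin female. No paired analysis by replicate number was possible because each group has 1 library; the library was the block. Shares of cycling barcodes were 11.1%, 6.77% and 9.01% at 2 UMIs; with other Epcam barcodes free of the 3 limits 3.34% in Foxn1Lin female and 4.58% in the wild type; and in the wild type 4.56% at 8 UMIs, 4.16% without T-lineage barcodes (2.62% in Foxn1Lin male) and 8.998% without the limits on either side. Without these limits Aire was in 60.5% and Psmb11 in 23.7% of cycling Foxn1Lin female barcodes and Psmb11 in 12.3% of wild-type ones; at 1 UMI wild-type Aire and Ccl21a were at 83.3% and 44.4%, and thinned Ccl21a was at 18.8% in Foxn1Lin male. The reporter was at 100% in both Foxn1Lin libraries without thinning and at 21.1% and 56.2% with 2 UMIs required. In Foxn1Lin female it was at 63.2% thinned to 4000 UMIs and at 10% thinned to 2000 UMIs, each a single random draw. The setting without limits on Pecam1, Pdgfra and Ptprc was added after the data were seen, and the alternatives for Psmb11 barcodes were not run, as 0, 0 and 1 cycling barcodes carried it. The exact interval of a count of 0 reaches 16.8% for 20 and 20.6% for 16 cycling barcodes. It bounds the share of barcodes that pass the UMI cut, not the share of cells that express the marker.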

Other observations

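Among the lists that the results do not describe further, DNA methylation and chromatin copying had a median log2 fold change of 2.74 over 12 genes against other Epcam barcodes, described without a test, and it shares genes with the S phase list. Ezh2, the methyltransferase of Polycomb repression, stood at 155, 98.2 and 161 CPM against 53.5, 34.3 and 33.2 in Foxn1Lin female, Foxn1Lin male and the wild type, and Dnmt1, the maintenance DNA methyltransferase, at 38.1, 38.2 and 75.9 against 25.7, 23.9 and 24.0. Tgfb2, a TGF-β ligand, stood at 62.6, 40.0 and 54.3 CPM against 101, 99.4 and 97.3 (log2 fold change -0.99, edgeR adjusted p = 0.0186; 0.08 without Foxn1Lin female and 0.0536 without the wild type), and against other Aire barcodes at 72.1, 43.0 and 61.2 against 140, 184 and 129 (-1.39, adjusted p = 0.032; 0.125 without Foxn1Lin female). Wfdc2, a secretory protease inhibitor, was lower against other Epcam barcodes, at 35.4, 27.3 and 184 against 134, 157 and 634 (-2.07 ± 0.21, adjusted p = 0.00195).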
